A study of Mus musculus with 18 samples.

Results

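The Myc, Max and Mxd network was described here through 10 genes: Myc, Mycn, Max, Mxd1, Mxd3, Mxd4, Mxi1, Mnt, Mga and Mlx. The genes were listed by name, and the list was chosen on the low value of Mxd3 on the array of the cells trisomic for chromosome 1. All 10 genes have probe sets on the array, 21 probe sets of the 22690 in all, and the 10 genes stand among 12394 genes that could be named. Averaged over the arrays, 8 of the 10 genes reached a log2 value of 4, the filter used here, and they were tested among all 7382 genes that did.

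Messenger RNA was measured in cultured mouse embryo fibroblasts (MEFs), connective tissue cells grown from embryos, after 2 passages. The groups were 1 line with 3 copies of chromosome 1 (trisomy 1), 4 lines with 3 copies of chromosome 13 (trisomy 13), 3 lines with 3 copies of chromosome 16 (trisomy 16), 1 line with 3 copies of chromosome 19 (trisomy 19), and 9 control lines with normal chromosomes. Each line was hybridised to its own array, 18 in all. The labels name no strain, sex or embryo age and do not say how the extra chromosome arose. Whether the lines of a group come from separate embryos is not said either, and the p-values cover only the spread among these lines, which may in part be technical.

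Myc is a transcription factor that drives growth and division, and it binds DNA only as a dimer with Max. The Mxd proteins, among them Mxi1, and the related protein Mnt also dimerise with Max. Their dimers recruit Sin3 corepressors and repress at the same DNA element, so that the balance of these proteins shifts between dividing and resting or differentiating cells. Mga is a large Max partner that also carries a T-box DNA-binding domain, and Mlx is a relative of Max that pairs with the glucose-sensing factors Mlxip and Mlxipl and with some Mxd proteins.

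The element is the E-box with the letters CACGTG, which reads the same on both strands. It was looked for in RefSeq promoter windows of assembly GRCm38.p6, which run from 250 bases before to 50 after an annotated gene start. Windows were held for 9 of the 10 genes (11 windows, 3 of them of Mxi1), Myc being the gene without one. CACGTG was in 4 of these 11 windows, those of Max, Mxd4, Mnt and Mlx, and in 7.15% of all 32851 windows (8.09% of genes). The window of Mxd3 did not hold these letters, which says nothing about factors bound there. The 4 matches are shown because they are the element the network's dimers read, in genes of the network itself. They lie at chr12:76962226-76962271 (minus strand, Max), chr5:34187904-34187949 (minus strand, Mxd4), chr11:74830781-74830826 (plus strand, Mnt) and chr11:101087230-101087275 (plus strand, Mlx). Each is written 5′ to 3′ on the strand of its gene, with the E-box in capitals and 20 bases on each side.
Max: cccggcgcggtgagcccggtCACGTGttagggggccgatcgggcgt
Mxd4: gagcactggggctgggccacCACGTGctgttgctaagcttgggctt
Mnt: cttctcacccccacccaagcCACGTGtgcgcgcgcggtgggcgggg
Mlx: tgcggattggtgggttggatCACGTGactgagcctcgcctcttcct
Distances were counted from the start on which each window was built. The E-box began 3 bases before that start for Max, 40 for Mlx, 123 for Mnt and 219 for Mxd4. The annotated spans of Max, Mlx and Mnt reach further 5′, to 76962323, 101086707 and 74830806. The Max and Mlx matches therefore lie inside the span of their gene. A match is a description of the letters and no measured binding site.

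The values are log2 expression values that the authors made with GCRMA. Gapdh control probe sets at the 3′ end exceeded those at the 5′ end by between -0.20 and 1.41 (log2) on 15 arrays. On 3 arrays, trisomy 13 replicates 3 and 4 and trisomy 16 replicate 1, it was between 5.57 and 6.94, a sign of RNA with its 5′ parts lost; these are called 3′-biased arrays. All 16 fibroblast markers were above the filter, with list means between 12.76 and 13.98 on every array. Of 17 macrophage markers 4 were above it, the list mean reaching 5.02 in trisomy 13 and 4.50 in controls at its highest. The first of the numbers in each title is common to at least 1 trisomic and 1 control line, and the labels do not explain it. Values against controls of the same first number are given below beside those against all controls.

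Mxd3, the Mxd protein known from cells in S phase, was low on the trisomy 1 array. Its brightest probe set read 4.91 there, against a lowest value of 7.73, a median of 8.06 and a highest of 8.34 over the 9 controls. The second one read 6.44 on the trisomy 1 array, against 7.22, 7.53 and 7.81 (lowest, median, highest) in controls. Each was the lowest value of all 18 arrays for that probe set. The third probe set stayed between 1.87 and 3.41 on every array, below the level of 4 at which signal and background are hard to separate. The differences from the control mean were -3.11 and -1.11 on the log2 scale, and -2.86 and -1.24 from control replicate 9, which shares its first number. So the brighter probe set gave the larger difference, and the 2 readings of this gene do not give 1 size. These values chose the list and come from 1 array, so they are given with no test. Mxd3 lies on chromosome 13 (chr13:55325170-55329900), not on the extra chromosome of this line.

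**Figure D1:**
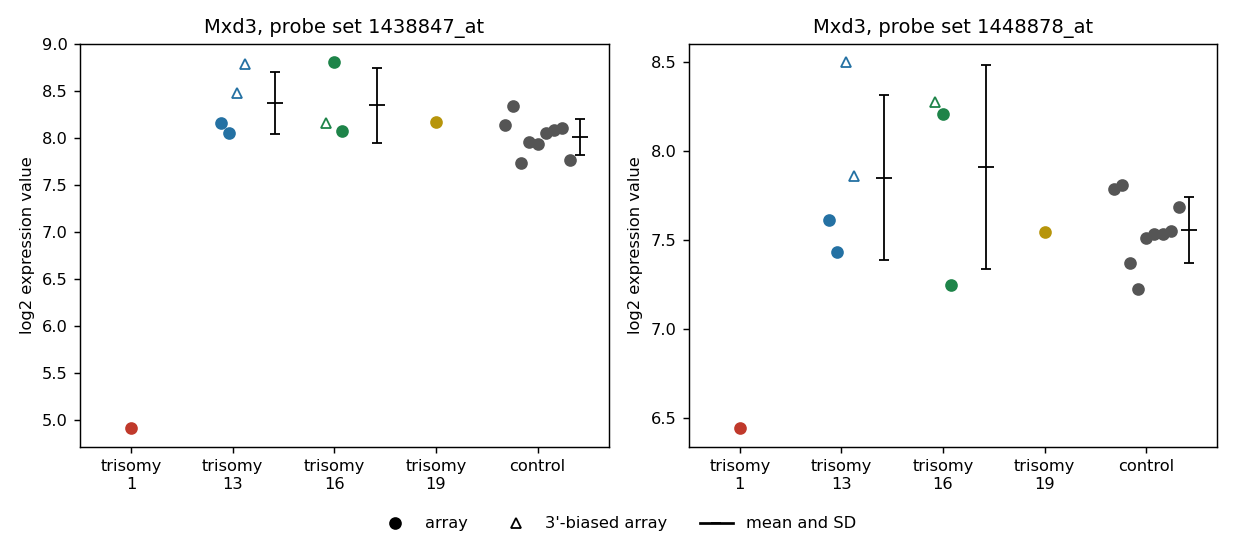
Log2 expression values of Mxd3 (vertical axes) for its 2 probe sets above the filter, by group, with 1 point per array; open triangles are 3′-biased arrays and bars are the mean and SD of groups with more than 1 array. The trisomy 1 array lies at 4.91 and 6.44, below every other array in each panel, whereas the trisomy 13 arrays, which carry an extra copy of the gene, overlap the controls.

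The other members on the trisomy 1 array are given likewise as levels only. Mga, at 9.52, was above the highest control (9.43). Myc was at 10.20, Mxi1 at 8.58, Mnt at 8.63, Mxd4 at 9.73 and Mlx at 7.07, all within the range of the controls. Max, the partner of most members, was at 7.26, within a wide control range of 3.42 to 9.79. The 28 mitosis genes measured had a mean of -1.04 from the control mean on this array, against -0.56 to 0.92 in single controls. On the trisomy 13 arrays that mean was between -1.50 and -0.85, with the brightest Mxd3 probe set between 8.05 and 8.79. The part of the mitosis genes in the value of Mxd3 was not tested. In a culture, fewer cells of a type and less RNA per cell cannot be told apart.

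Mxd3 was also set against its own gene dose, since trisomy 13 adds a copy. The brightest probe set read 8.16, 8.05, 8.48 and 8.79 on trisomy 13 replicates 1 to 4, against 7.73 to 8.34 in controls. The 2 values above the control range were those of the 3′-biased arrays. The mean was 8.37 ± 0.33 in trisomy 13 (SD, n = 4) and 8.01 ± 0.19 in controls (SD, n = 9). The difference was 0.36 ± 0.21 (log2, SE; limma adjusted p = 0.31), 1.28-fold with a 95% interval of 0.947 to 1.73. The interval holds both no change and the 0.58 (log2) of a gene that follows 3 copies over 2. Of 277 tested genes of chromosome 13, 24.2% had a smaller difference, and their median was 0.64. Without the 3′-biased arrays the difference was 0.09, and for the second probe set it was 0.30 ± 0.24 with all arrays and -0.03 on the unbiased ones.

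Mxd3 did not pass in the other trisomies either. In trisomy 16 it was at 8.16, 8.81 and 8.08 in replicates 1 to 3, with a difference from controls of 0.33 ± 0.23 (adjusted p = 0.77). In trisomy 19 it was at 8.17, within the controls. By group mean its order was trisomy 13 (8.37), trisomy 16 (8.35), trisomy 19 (8.17), controls (8.01) and trisomy 1 (4.91), and the first 4 of these overlap.

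Mxi1, a Max-binding repressor of the Mxd family, lies on chromosome 19 (chr19:53310128-53373293). The brighter of its probe sets read 8.70 on the trisomy 19 array, against 7.11, 8.36 and 9.11 (lowest, median, highest) in controls. The single value lay inside the control range. The difference was 0.37 ± 0.56 (log2, SE, n = 1 against 9; limma adjusted p = 1), 1.29-fold with a 95% interval of 0.57 to 2.93, which holds both an unchanged and a 1.5-fold level. The median over 260 tested genes of chromosome 19 was 0.58, and 22.7% had a smaller difference than Mxi1. In control replicate 8, of the same first number, Mxi1 was at 8.15. The dimmer probe set was below 4 on the trisomy 19 array, at 2.26, and on 16 of all 18 arrays.

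Myc itself was higher in trisomy 13 and lower in trisomy 16 by its means, and neither difference passed. Its 1 probe set read 10.89, 11.10, 11.37 and 11.00 on trisomy 13 replicates 1 to 4, and 10.55, 9.73 and 8.87 on trisomy 16 replicates 1 to 3. Trisomy 19 was at 10.59. The controls had a lowest value of 9.26, a median of 10.20 and a highest of 11.10. All 4 trisomy 13 arrays lay above the control mean and 1 lay above the control range, while the lowest trisomy 16 array lay below it. The means were 11.09 ± 0.21 in trisomy 13 (SD, n = 4), 9.71 ± 0.84 in trisomy 16 (n = 3) and 10.32 ± 0.58 in controls (n = 9). The difference from controls was 0.77 ± 0.33 in trisomy 13 (log2, SE; limma adjusted p = 0.19) and -0.61 ± 0.36 in trisomy 16 (adjusted p = 0.76).

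Part of this spread of Myc went with the first number. Control replicates 1 to 3, which share first numbers with the trisomy 16 lines, were between 9.26 and 10.12. Control replicates 4 to 7, which share them with the trisomy 13 lines, were between 10.20 and 11.10. Control replicates 8 and 9, which share them with trisomy 19 and trisomy 1, were at 10.84 and 9.91. Against controls of their own number the difference of Myc was 0.39 in trisomy 13 and -0.07 in trisomy 16. Single trisomy 13 arrays were then at -0.21, 0.64, 0.91 and 0.23.

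Set directly against each other, the arrays of trisomy 13 and of trisomy 16 did not overlap for Myc. The share of all genes whose arrays did not overlap was not counted. In the limma test of that comparison 2.42% of all genes passed, and Myc did not. The difference was 1.38 ± 0.41 (log2, SE, n = 4 against 3; limma adjusted p = 0.087), 2.60-fold with a 95% interval of 1.41 to 4.77. It passed when trisomy 16 replicate 1, the 3′-biased array with the highest Myc of its group, was left out (1.79, adjusted p = 0.028). In that setting 352 of all 7382 genes passed, against 179 with all arrays. No first number holds lines of both trisomies, so trisomy and first number cannot be told apart in this direct comparison. With the first number as a block the difference of Myc was 0.46 (adjusted p = 0.97). That value rests on the controls that share the number of each trisomy.

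Mnt, the broadly expressed Max partner that represses Myc targets, followed the same order as Myc. Its brighter probe set read 9.53, 10.17, 10.16 and 9.38 on trisomy 13 replicates 1 to 4, 9.15, 7.56 and 8.83 on trisomy 16 replicates 1 to 3, and 9.35 on the trisomy 19 array. Controls were at 7.27, 9.23 and 9.84 (lowest, median, highest). In trisomy 13 all 4 values were above the control mean and 2 above the control range. The differences from controls were 0.86 ± 0.41 in trisomy 13 (log2, SE; limma adjusted p = 0.23) and -0.43 ± 0.45 in trisomy 16 (adjusted p = 0.83). Trisomy 13 minus trisomy 16 gave 1.29 ± 0.52 (adjusted p = 0.20). The lowest control, 7.27, and the lowest trisomy 16 array, 7.56, have the same first number. Against controls of their own number the differences were 0.29 in trisomy 13 and 0.44 in trisomy 16, the second with its sign turned. The other probe set of Mnt stayed between 2.13 and 2.30 on all arrays.

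**Figure D2:**
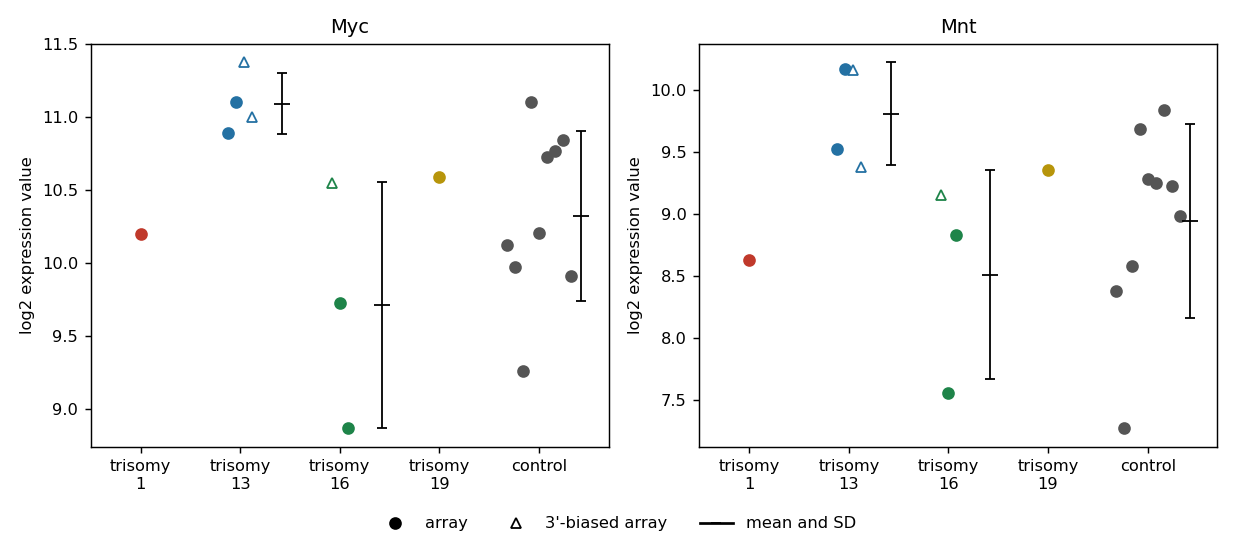
Log2 expression values of Myc and of Mnt (vertical axes) by group, with 1 point per array, open triangles for 3′-biased arrays, and bars for the mean and SD of groups with more than 1 array. The trisomy 13 arrays of Myc lie between 10.89 and 11.37 and those of trisomy 16 between 8.87 and 10.55, with controls from 9.26 to 11.10 spanning most of that range.

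Max, the shared dimer partner, varied more among the controls than between the groups. In controls its 1 probe set had a lowest value of 3.42, a median of 9.42 and a highest of 9.79. Control replicate 9 was at 3.42 and control replicate 3 at 6.59, whereas the other 7 controls were between 9.20 and 9.79. Trisomy 13 replicates 1 to 4 were at 9.91, 10.22, 8.03 and 7.65, the last 2 being 3′-biased, and trisomy 16 replicates 1 to 3 were at 7.32, 9.04 and 6.43. Trisomy 19 was at 9.61. The low values did not follow the first number throughout. Trisomy 16 replicate 3 (6.43) shares it with control replicate 3 (6.59) but also with control replicate 1 (9.33), and trisomy 1 (7.26) shares it with control replicate 9 (3.42). The 3′-biased trisomy 13 replicates 3 and 4 had same-number controls between 9.42 and 9.74. The difference of Max on the trisomy 1 array was 3.85 from control replicate 9 and -1.28 from the mean of all controls. The differences from controls were 0.41 ± 1.02 in trisomy 13 (limma adjusted p = 0.84) and -0.95 ± 1.13 in trisomy 16 (adjusted p = 0.85). With a 95% interval of -1.76 to 2.57 in trisomy 13, changes of several fold in either direction were not detectable.

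Mga was the member with the lowest unadjusted p in trisomy 13, and its low values were those of the 3′-biased arrays. Its brighter probe set read 9.14 and 9.26 on trisomy 13 replicates 1 and 2 but 5.23 and 6.20 on the 3′-biased replicates 3 and 4. In trisomy 16 the 3′-biased replicate 1 was at 7.44 and the others at 9.07 and 8.80. The controls lay close together, from 8.82 to 9.43, with a median of 9.11. The difference was -1.67 ± 0.58 in trisomy 13 (log2, SE; limma adjusted p = 0.13) and 0.07 without the 3′-biased arrays (adjusted p = 0.95). Leaving out trisomy 13 replicate 1 or 2, the arrays without bias, brought it past the threshold (-2.23, adjusted p = 0.045, and -2.27, adjusted p = 0.026). In these settings 310 and 734 of all 7382 genes passed, against 130 with all arrays.

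Mlx was low on the same arrays by its brighter probe set. Its brighter probe set read 7.09 and 8.18 on trisomy 13 replicates 1 and 2, 3.74 and 4.37 on replicates 3 and 4, and 5.05 on trisomy 16 replicate 1. Controls were at 5.82, 7.07 and 7.85 (lowest, median, highest). The 2 lowest controls, replicate 9 at 5.82 and replicate 7 at 5.98, had the highest Gapdh differences of the controls, 1.41 and 0.69. The trisomy 1 array, with a Gapdh difference of 0.6, read 7.07. A relation of Mlx to the Gapdh difference was not tested. The difference in trisomy 13 was -1.10 ± 0.71 (limma adjusted p = 0.36) with all arrays and 0.69 without the 3′-biased ones, so its direction turned. The other probe set of Mlx varied less, with 5.99, 6.15, 5.29 and 4.65 in trisomy 13 replicates 1 to 4, against 5.00 to 7.11 in controls. It read 6.18 on the 3′-biased trisomy 16 replicate 1 and 5.88 on control replicate 9.

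Mxd4, an Mxd repressor that rises as cells leave the cycle, had 3 of 4 probe sets above the filter. The brightest read 9.76, 10.44, 8.16 and 7.77 on trisomy 13 replicates 1 to 4 and 7.12, 8.25 and 9.55 on trisomy 16 replicates 1 to 3. It read 10.22 on the trisomy 19 array, and 7.10, 9.62 and 10.21 (lowest, median, highest) in controls. All 3 of the 3′-biased arrays were at 8.16 or below, and so was 1 control, replicate 1, at 7.10. The differences were -0.32 ± 0.58 in trisomy 13 (limma adjusted p = 0.77) and -1.05 ± 0.65 in trisomy 16 (adjusted p = 0.76). Without the 3′-biased arrays they were 0.74 and -0.46, turning the sign in trisomy 13. The second probe set was below 4 on the 3′-biased arrays (2.93, 2.92 and 2.89) and on control replicate 1 (2.85), and was between 4.53 and 7.08 on all others. The third read 5.84, 6.66, 4.72 and 5.24 on trisomy 13 replicates 1 to 4, against 4.15 to 5.97 in controls. On each of these 3 probe sets the 3′-biased arrays of trisomy 13 lay inside the control range. For the brightest and the second this was through control replicate 1 alone. Only trisomy 13 replicate 2 lay outside the range, above it. Tested by probe set with all arrays, the difference in trisomy 13 was -0.89 ± 0.86 for the middle probe set by level (limma adjusted p = 0.55). For the dimmest of these 3 it was 0.46 ± 0.42 (limma adjusted p = 0.52). With all arrays the probe sets of Mxd4 thus differed in sign, and no difference passed. On the unbiased arrays the differences were 0.74, 1.05 and 1.1, from the brightest to the dimmest of the 3. These share a direction but rest on 2 trisomy 13 arrays.

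**Figure D3:**
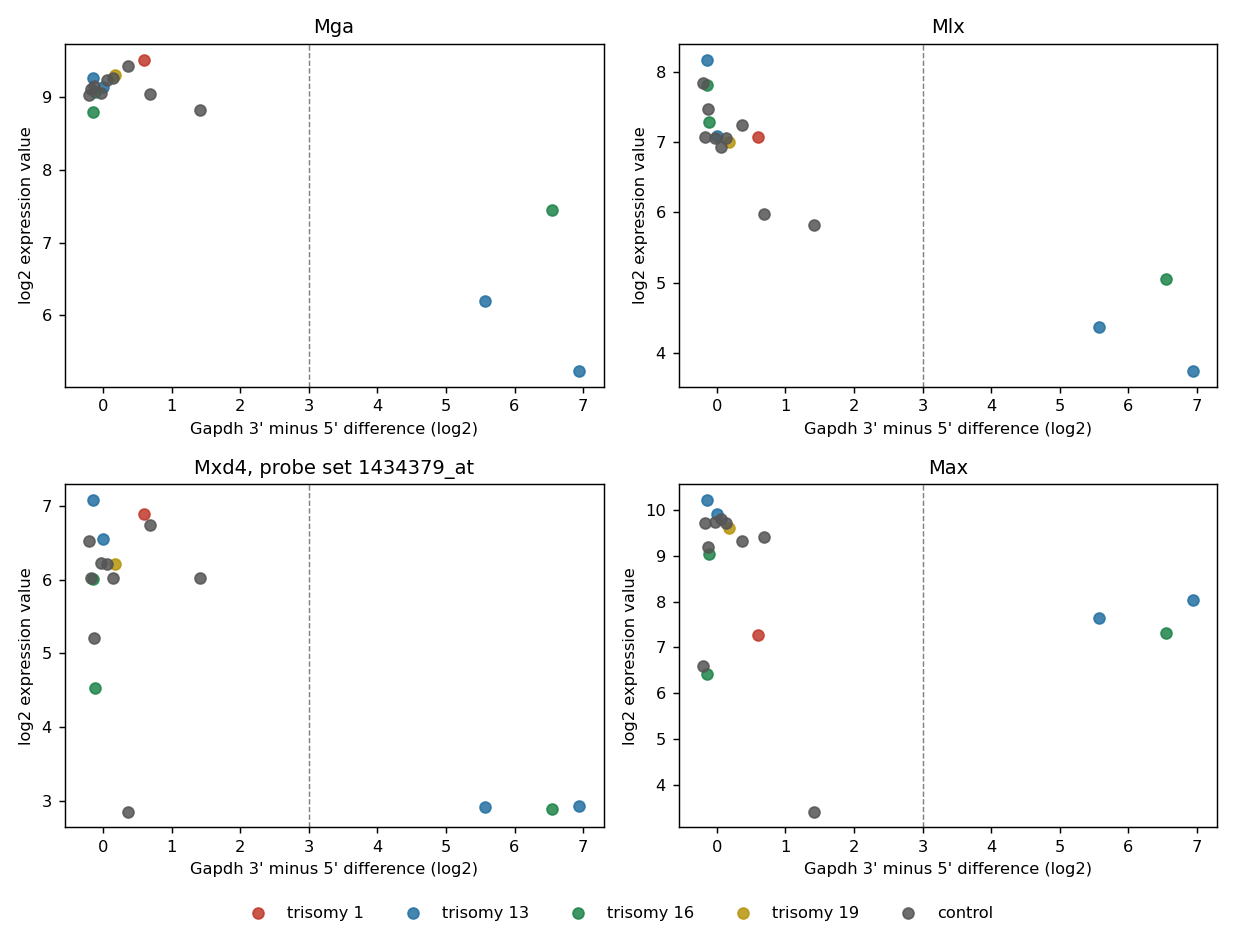
Log2 expression values (vertical axes) of Mga, Mlx, 1 probe set of Mxd4 and Max against the Gapdh 3′ minus 5′ difference of the same array (horizontal axes, log2), coloured by group, with the limit of 3 dashed. Mga at 5.23 to 7.44 and Mlx at 3.74 to 5.05 were lower on the 3 arrays right of the limit than on any array left of it, whereas for Max single arrays left of it, down to 3.42, were as low or lower.

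Mxd1, an inducer of differentiation-linked arrest, and Mycn, the Myc relative of embryonic progenitors, did not reach the filter. The single Mxd1 probe set stayed between 1.81 and 1.97 on every array. The 3 probe sets of Mycn had means over all arrays of 3.01, 2.98 and 2.83. The second of them reached 4.46 on the 3′-biased trisomy 13 replicate 3 and 4.35 on the trisomy 19 array, against 2.58 to 2.83 in controls, which is near background. The other 3′-biased arrays, trisomy 13 replicate 4 and trisomy 16 replicate 1, were at 3.23 and 3.97. Trisomy 13 replicates 1 and 2 were at 2.74 and 2.58. At these levels no change could be measured.

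Across the comparisons 0 of the 8 tested members passed in trisomy 13, where 1.76% of all 7382 genes passed with limma (1.1% higher and 0.664% lower; 62.3% of those passing were higher). That share was 74.0% after quantile normalization and 74.1% after median centring, but 33.3% with the first number as a block, 48.7% without trisomy 13 replicate 1 and 26.4% without trisomy 13 replicate 2. The count of members was also 0 of 8 in trisomy 16 (0.0406% of all genes, 3 genes and all higher; 0 with replicates 1 to 3 paired), in trisomy 19 (0 genes, 0%) and in trisomy 13 minus trisomy 16 (2.42%; 1.33% higher and 1.1% lower). At an unadjusted p under 0.05 there were 2 members in trisomy 13 (Myc and Mga; 21.9% of all genes), 0 in trisomy 16 (6.99%), 0 in trisomy 19 (1.96%) and 2 in trisomy 13 minus trisomy 16 (Myc and Mnt; 17.8%). The median difference of the 8 members was 0.26 in trisomy 13, -0.52 in trisomy 16 and 0.32 in trisomy 19, where all genes had medians of 0.01, -0.05 and -0.08. Without the 3′-biased arrays the count passing was 0 in each comparison as well. In trisomy 13, 5 of 8 were positive, in trisomy 16 2 of 8 and in trisomy 19 8 of 8. The 3 comparisons share the same 9 controls. The 8 of 8 rests on 1 array and 1 probe set per gene. Against control replicate 8, of the same first number, Myc (-0.26), Max (-0.11) and Mlx (-0.06) were negative in trisomy 19, and the other tested members were positive. The dimmer probe set of Mlx was at 4.39 on the trisomy 19 array, against 5.00 to 7.11 in controls.

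**Figure D4:**
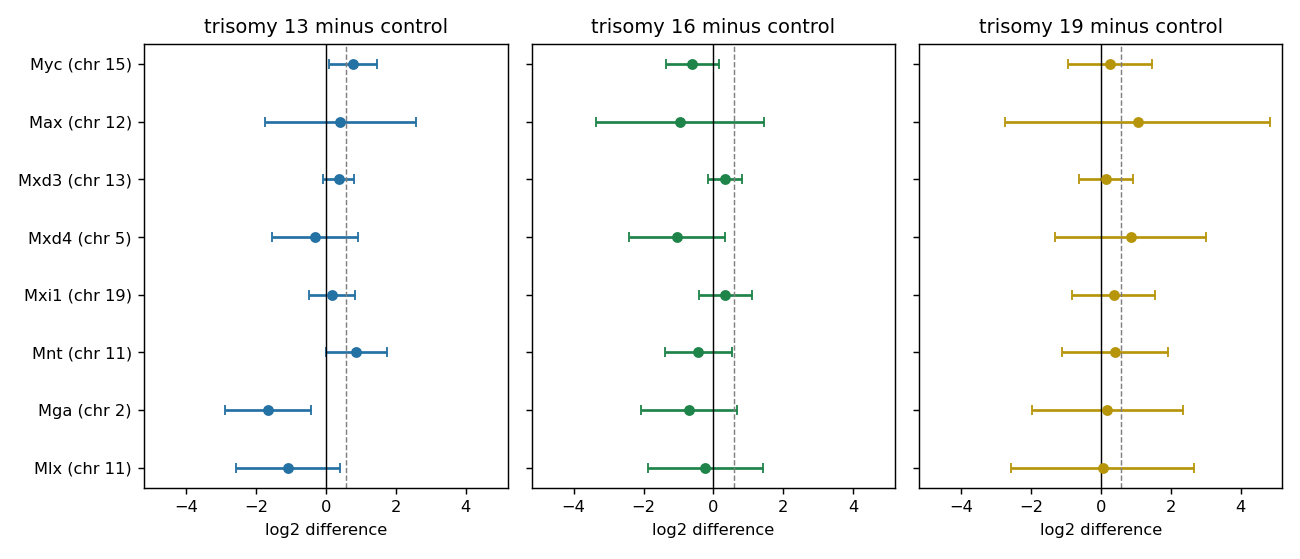
Log2 difference from controls (horizontal axes) of the 8 tested members, with 95% intervals from the limma fit over all genes, for trisomy 13, trisomy 16 and trisomy 19; the dashed line marks 0.58, a 1.5-fold level. The intervals of Max are the widest, -1.76 to 2.57 in trisomy 13, and those of Mxd3 the narrowest, -0.08 to 0.79.

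Genes that work with the network were counted from lists. Of 40 genes that Myc is known to induce, in ribosome assembly, metabolism and chaperones, 34 were tested. None passed in trisomy 13, 16 or 19, or between trisomies 13 and 16. In trisomy 13, 6 of the 34 were above the control mean (median -0.35, all genes 0.01), while Myc had a positive difference there. As means per array they were at -0.21 and -0.19 on trisomy 13 replicates 1 and 2 and at -0.66 and -0.74 on the 3′-biased replicates 3 and 4, against -0.33 to 0.27 in controls. The 2 with the lowest p were Nolc1, a nucleolar chaperone (-1.56, limma adjusted p = 0.077), and Hspd1, a mitochondrial chaperone (-0.69, adjusted p = 0.080), which were at -0.36 and -0.19 without the 3′-biased arrays. In trisomy 16 the list median was -0.02, with 16 of 34 positive, and Ldha of lactate production was at 0.22 and Nop58 of ribosome assembly at -0.46 (adjusted p = 0.76 each). In trisomy 19, 13 of 34 were positive (median -0.06), with Nolc1 (0.73) and Prdx3 (0.49), both on chromosome 19, having the lowest p (adjusted p = 1). Between trisomies 13 and 16 the lowest p were those of Gart of purine synthesis (-1.14, adjusted p = 0.12), which lies on chromosome 16, and the chaperone gene Hspe1 (-0.35, adjusted p = 0.13).

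Genes that Myc is known to repress had 8 of 10 tested, and 0 passed. Cdkn2b, an inhibitor of the G1 kinases, was at 12.23 to 12.89 in trisomy 13, against 11.56 to 12.27 in controls (0.57 ± 0.18, limma adjusted p = 0.11). Cdkn1b, another kinase inhibitor, was at -0.42 (adjusted p = 0.32). In trisomy 16 Gadd45a was at -0.92 (adjusted p = 0.76) and Pdgfrb at 0.29 (adjusted p = 0.78; 0.12 without the 3′-biased array). In trisomy 19 Cdkn2b was at 0.27 and Cdkn2c at -0.54 (adjusted p = 1). Trisomy 13 minus trisomy 16 gave -0.49 for Pdgfrb (adjusted p = 0.31) and 0.37 for Cdkn2b (adjusted p = 0.42). The list medians were -0.08 in trisomy 13, -0.22 in trisomy 16 and 0.06 in trisomy 19.

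Cofactors of Myc and Mxd had 11 of 15 genes tested and 0 passed. Ruvbl2, an ATPase of chromatin remodelling complexes that bind Myc, was at -1.23 in trisomy 13 (limma adjusted p = 0.086) and at -0.34 without the 3′-biased arrays. Kat2a, a histone acetylase, was at -0.71 (adjusted p = 0.13) and at -0.24 without them. Sin3b, a corepressor scaffold that Mxd proteins recruit, was at -0.45 in trisomy 16 (adjusted p = 0.70; -0.73 without the 3′-biased array), and Trrap, a scaffold of acetylase complexes, was at -0.76 (adjusted p = 0.76; -0.41 without it). Trisomy 13 minus trisomy 16 gave 0.79 ± 0.23 for Sin3b (adjusted p = 0.079) and -1.43 ± 0.46 for Ruvbl2 (adjusted p = 0.11; -0.57 without the 3′-biased arrays). Of the genes that set the stability of the Myc protein 10 of 12 were tested and 0 passed. The ubiquitin ligase gene Huwe1 was at -1.92 in trisomy 13 (adjusted p = 0.15) and Axin1, a scaffold, at -1.75 (adjusted p = 0.14), and without the 3′-biased arrays they were at 0.16 and 0.03. In trisomy 16 Gsk3a, a kinase that marks Myc for degradation, was at -0.40 ± 0.15 (adjusted p = 0.59). Cip2a, which protects Myc from dephosphorylation and lies on chromosome 16, was at 0.87 ± 0.47 there (adjusted p = 0.76; 0.48 without the 3′-biased array). Trisomy 13 minus trisomy 16 gave 0.55 for Gsk3a (adjusted p = 0.11) and -1.41 for Cip2a (adjusted p = 0.17). Mlxip, the Mlx partner, was at -0.75 in trisomy 13 (adjusted p = 0.14; -0.17 without the 3′-biased arrays) and at -0.24 in trisomy 16 (adjusted p = 0.85; -0.07 without the 3′-biased array). It was at -0.21 in trisomy 19 (adjusted p = 1), and trisomy 13 minus trisomy 16 gave -0.50 (adjusted p = 0.46). In trisomy 19 the genes with the lowest p in these lists were Sin3a (-0.65), Ruvbl2 (-0.64), Fbxw7 (-0.53) and Trim32 (-0.67), each with an adjusted p of 1. Mycl and Mlxipl, with means of 3.23 and 1.90, were below the filter.

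Mitosis genes, which rise and fall with division, are given beside the members. In trisomy 13, 3 of 28 fell, and all 28 were below the control mean. They were the spindle checkpoint gene Bub1b (-1.61), the cytokinesis gene Racgap1 (-1.34) and the mitotic kinase gene Aurka (-3.59), with limma adjusted p of 0.033, 0.036 and 0.049. Without the 3′-biased arrays the 3 were at -0.95, -1.18 and -0.94 and none of the 28 passed. The count was likewise 0 with the first number or the replicate number as a block, with the Gapdh covariate, against controls of the same first number, and without any 1 of trisomy 13 replicates 3 and 4 and control replicates 2, 7 and 8. It was 6 without any 1 of trisomy 13 replicates 1 and 2 and trisomy 16 replicate 1. The array means were between -1.50 and -0.85 in trisomy 13, and at 0.45, 1.25 and -0.67 in trisomy 16. In trisomy 16 and trisomy 19 none of the 28 passed, with medians of 0.36 and -0.51; Tpx2 (0.70) and Ccnb2 (0.63, and 0.29 without the 3′-biased array) had the lowest p in trisomy 16, and Ttk (-1.92) and Bub1 (-1.04) in trisomy 19. Trisomy 13 minus trisomy 16 gave 2 of 28 lower, Racgap1 (-1.70, adjusted p = 0.03) and Bub1b (-1.84, adjusted p = 0.042). That count was 0 with either block, without the 3′-biased arrays, and without any 1 of trisomy 13 replicates 3 and 4 and trisomy 16 replicate 2, it was 7 with the covariate, and leaving out other single arrays gave 1 (control replicates 2, 4, 5, 7, 8 and 9) to 10 (trisomy 16 replicate 3). Their part in the levels of the members was not tested.

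Over the 9 controls, where neither an extra chromosome nor a 3′-biased array entered, the 4 genes most like Myc were Bcl10 (Pearson r = 0.949), Sgk1 (0.947), Tslp (0.942) and Vdac3 (0.942). Most like Mxd3 were Fscn1 (r = 0.917), Rpa1 (0.896), Ccnd2 (0.896) and Cbr3 (0.891). These are the highest of 7381 genes over 9 arrays that share their processing, so values of this size describe the arrays and carry no test. Over all 18 arrays r was 0.85, 0.92, 0.67 and 0.63 for the genes named beside Myc, and 0.35, 0.58, 0.50 and -0.02 for those named beside Mxd3.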

How the data were processed

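The authors deposited log2 expression values of 22690 probe sets on 18 arrays, made with GCRMA and the affy package per the submitters' processing notes. No version or setting is given there. Probe sets listed with exactly 1 gene (20393) were used, and 691 listed with several genes and 1606 with none were not. Per gene the probe set with the highest mean was tested, if its mean was at least 4. Limma 3.58.1 in R 4.3.3 (lmFit, eBayes with trend) was fitted to 5 groups with 13 residual degrees of freedom. P-values were two-sided and Benjamini-Hochberg adjusted over 7382 genes, with a threshold of 0.05. Trisomy 19, with 1 array, is assumed to vary like the other groups. Trisomy 1 chose the members and was not tested.

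Members and lists were chosen with earlier results of these data known. All members are named. Of other lists, up to 4 genes passing in each direction are named, or the 2 with the lowest p. For Myc and Mxd3, the 4 genes most correlated over controls are named. By replicate number, deviations of trisomy 16 and control replicates 1 to 3 correlated (0.52, 0.41 and 0.58), and these lines also share first numbers. Those of trisomy 13 did not (-0.26 to -0.03). There the replicate number joins lines of different first numbers, so this check could not show a pairing. Among the controls compared, trisomy 13 replicate 1 was most like control replicate 4, of its own first number (0.36). The same-number controls of the other trisomy 13 replicates were not compared. Tested on simulated data, made 5 times with 200 of the 7382 genes shifted by a log2 value of 1, the fit found 36.0% in trisomy 13, 26.9% in trisomy 16 and 2.2% in trisomy 19. Alternatives were other filters, probe set rules, scalings, blocks, a covariate for Gapdh, other controls and leaving out arrays. The number of arrays limits the precision. Figures were drawn with matplotlib 3.10.9.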

Additional observations from a re-analysis of the deposited data

Results flagged for a closer look

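A single array stood far from the rest of its group, by Dixon's ratio at the 95% level, in 7 of 42 groups of values (21 probe sets, trisomy 13 and controls), where chance marks about 1 in 20. The Max probe set was at 3.42 on control replicate 9, with the nearest control at 6.59. Mxd4 was at 7.10 on control replicate 1 for its brightest probe set (nearest 8.86) and at 2.85 for the second (nearest 5.21). On control replicate 1 the dimmer probe set of Mlx was high, at 7.11 (nearest 5.88). The dimmer Mxi1 probe set, with a mean of 3.04 below the filter, was at 5.29 on control replicate 3 (nearest 3.29). Of the same first number, trisomy 16 replicate 3 was at 4.48, trisomy 16 replicate 1 at 2.30 and control replicate 1 at 2.93. The other 2 also lie below the filter. The brightest Mycn probe set was at 2.62 on trisomy 13 replicate 2 (nearest 3.16), and Mxd1 was at 1.81 on control replicate 3 (nearest 1.85).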

How the results depend on the processing

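The count of members passing was 0 in trisomy 16 under all 31 alternatives and in trisomy 19 under all 29. In trisomy 13 it was 0 to 1 when arrays were left out in turn, with Mga passing without trisomy 13 replicate 1 (-2.23) or replicate 2 (-2.27), and 0 under the other alternatives. Without those replicates 310 and 734 of all 7382 genes passed. In trisomy 13 minus trisomy 16 the count of members was 0 to 1, with Myc passing without trisomy 16 replicate 1, where 352 of all genes passed. With either replicate block, by first number or by replicate number, the count of members was 0. It was already 0 without a block. The blocks also cut the genes passing in trisomy 13 from 130 to 6 and 9, so an unchanged 0 tells little. The replicate number joins trisomy 13 lines with controls of other first numbers. The count was 0 as well for trisomy 16 paired with control replicates 1 to 3 (Myc -0.07, Mnt 0.44, Mxd3 0.28). The difference of Mxd3 on the trisomy 1 array, -3.11, was -1.51 with the mean of all its probe sets and -2.86 against the control of its own number; leaving out arrays gave -3.14 to -3.07. Differences kept their sign under all alternatives for Myc, Mnt and Mxd3 in trisomy 13 (0.39 to 0.98, 0.29 to 1.33 and 0.09 to 0.49) and for Myc, Max, Mxd3 and Mxd4 in trisomy 16. Single arrays of trisomies 1 and 19 allow only large changes to be detected. Without the filter 40 of 12394 genes passed in trisomy 19, no member among them. Over all genes the count passing depended on the setting: in trisomy 13 it was 130, against 6 when blocked by first number, 9 when blocked by replicate number, 14 without the 3′-biased arrays, 31 against controls of the same first number, 46 with the Gapdh covariate, 205 with median centring and 26 to 734 when single arrays were left out. In trisomy 16 it was 3, against 0 with each block, without the 3′-biased arrays and against controls of the same first number, 8 without the filter, 11 with median centring, 14 with the covariate and 0 to 8 with single arrays left out. In trisomy 13 minus trisomy 16 it was 179, against 1 and 0 with the blocks, 27 without the 3′-biased arrays, 425 with the covariate and 26 to 352 with single arrays left out.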
